A study of Mus musculus with 30 samples.

Results

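Transcripts of 9 genes that oligodendrocytes use to build myelin were followed in RNA from sorted mouse microglia: Mbp, Mobp, Mal, Mog, Mag, Cldn11, Cnp, Ermn and Trf. They were taken by gene symbol, each matched 1 row of the deposited count table, and together they are 9 of its 46078 genes. The series compared microglia that lack the autophagy gene Atg7 with wild-type microglia, and microglia of old with those of young mice, without disease and during experimental autoimmune encephalomyelitis (EAE), an immune attack on central nervous system myelin. All mice were C57BL/6. KO mice were Atg7fl/fl with Cx3cr1CreERT, and WT mice had Atg7wt/wt with Cx3cr1CreERT2, so a Cre recombinase that is driven from the Cx3cr1 locus and switched on by tamoxifen is present in the controls too. KO and WT mice were given 4 mg of tamoxifen 3 times, 48 h apart. EAE was induced at least 18 days later with rmMOG, residues 1 to 125 of the protein that the member Mog encodes, and pertussis toxin. Naive mice had no EAE. The groups were naive KO, naive old and naive WT with 4 libraries each, day 21 KO with 4 and day 21 WT with 3, and day 35 KO with 4, day 35 old with 3 and day 35 WT with 4, where the day counts from EAE induction. Age is given only as young (KO and WT) or old, the old mice are listed as wild type for Atg7, and their Cre and tamoxifen status is not given. Per the labels' protocols, cells from dissociated central nervous system were collected by flow cytometry as live and as CD11b+ CD45int Ly6G-, eYFP+ or both, and material of females and males was pooled 1:1. The labels do not say whether the libraries of a group came from separate mice, though each count column is named by its own number or pair of numbers. All naive old columns carry a single number and all naive WT columns a pair, so pooling may differ between groups. P-values measure the spread between these libraries, and how much of it is technical was not tested.

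Myelin is the layered membrane that oligodendrocytes wrap around axons, and it is packed with a small set of highly expressed proteins. Oligodendrocytes, not microglia, are known as the main makers of most of these RNAs in the brain, while microglia take up myelin debris during demyelination and clear it in lysosomes. Some members are also known outside the oligodendrocyte: Trf, transferrin, carries iron in many tissues, Cnp is broadly expressed at low level, and the Mbp locus also gives rise to golli transcripts in immune cells, which a count over the whole gene cannot separate. A bulk count does not tell RNA inside the sorted cell from RNA of engulfed myelin, of attached fragments or free in the suspension. These sources cannot be told apart here, nor can fewer cells of a type and less RNA per cell.

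The libraries held 4712803 to 11034565 counts, median 6769302. All 10 listed microglia markers were detected in the table, and their summed level was 9022 to 30920 CPM (counts per 1000000 of the library total, scaled by TMM) per library. Replicate 1 of day 35 old stood apart, with 30630 CPM of neutrophil markers against 64.4 and 1802 CPM in the other day 35 old libraries, and with the lowest microglia marker sum of the series, 9022 CPM. Neutrophil marker sums were also high in naive old (6351 to 12210 CPM) and naive WT libraries (1399 to 15420 CPM). They were 108 to 2362 CPM in naive KO and 110 to 3232 CPM in day 35 KO libraries. In day 21 KO they were 33.3 to 87.7 CPM, in day 21 WT 6.59 to 25.6 CPM and in day 35 WT 3.91 to 34.9 CPM. The part of these cells in the members' values was not tested. Replicate 3 of day 35 WT is wild type by its title and knockout by its genotype label. It was kept as WT. Values without it are given beside the main results of the comparisons with day 35 WT. Atg7 itself did not pass the test between KO and WT microglia at any time. It ranged over 11.4 to 31.8 CPM in naive KO and 26.6 to 40.1 CPM in naive WT, over 31.0 to 36.9 CPM in day 21 KO and 19.8 to 25.3 CPM in day 21 WT, and over 30.3 to 33.8 CPM in day 35 KO and 21.3 to 23.8 CPM in day 35 WT. A count over the whole gene also takes reads from exons outside a deleted part, and therefore does not check the labels.

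The members spanned a wide range of levels. Per kilobase of exon, averaged over the 30 libraries, Trf was the most abundant at 42.4 CPM per kb, followed by Cnp at 11.3, Mbp at 8.45, Mag at 5.01 and Mobp at 2.05 CPM per kb. Mal at 0.572, Cldn11 at 0.363, Ermn at 0.285 and Mog at 0.200 CPM per kb were near the limit of counting. Mog had only 72 counts in all and none in 11 of 30 libraries, and it alone failed the filter on low counts, so 8 of 9 members were tested. Mal, Cldn11 and Ermn passed with few counts, and Cldn11 passed only with the day 35 KO libraries where it is highest. A low gene that passes a filter in this way is favoured to differ in comparisons with that group. Counts of calls over the 8 are therefore read as descriptions. Mbp lies at chr18:82475146-82585637 on the plus strand and Trf at chr9:103204001-103230444 on the minus strand (GRCm38). Most members overlap other genes little: 4.23% of the exonic bases of Cnp are shared with Dnajc7 on the opposite strand, and 63.5% of the exonic bases of Trf are shared with the readthrough gene Gm20425, which had 0 counts in this table. The strand setting of the counter is not given in the sources used here, so reads over the Dnajc7 overlap are of uncertain origin.

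**Figure D1:**
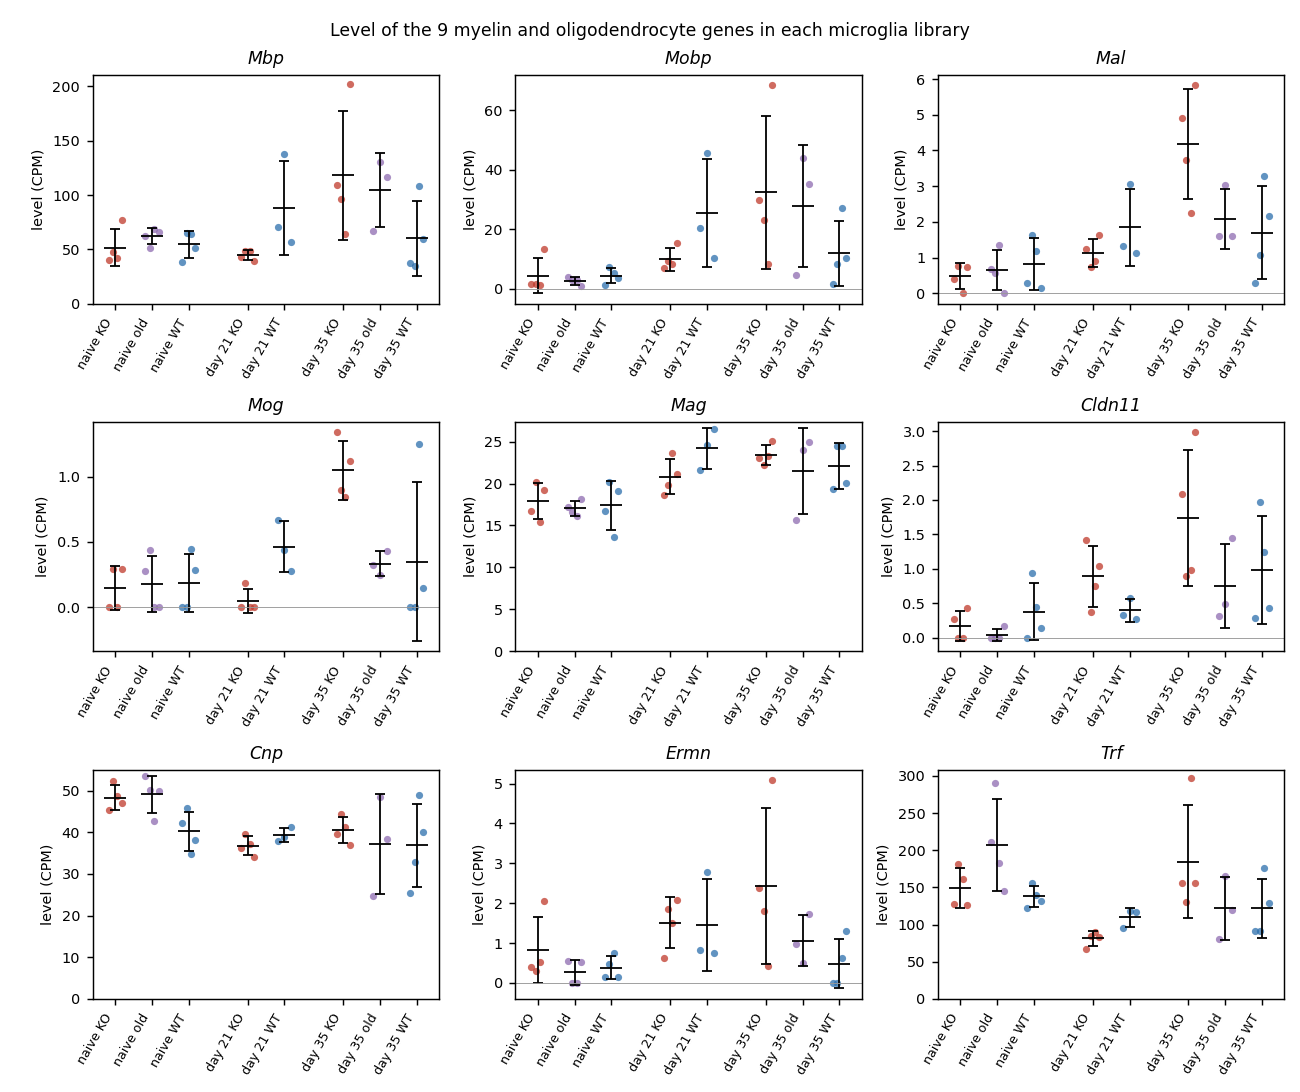
Level of each of the 9 members in CPM (linear axis) by group. Points are libraries, the horizontal mark is the group mean and the bars are 1 SD. Mobp reached 68.5 CPM in replicate 4 of day 35 KO and was at most 13.3 CPM in naive libraries, while Mag stayed between 13.6 and 26.5 CPM in all 30 libraries.

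The 9 transcripts did not behave as 1 set, as the plot of levels by library shows. Mobp differed 98.01-fold between its lowest and its highest library, Mbp 5.80-fold and Trf 4.40-fold, whereas Cnp differed 2.16-fold and Mag 1.94-fold. Replicate 4 of day 35 KO was the highest of all 30 libraries for Mbp, Mobp, Mal, Cldn11 and Ermn, 5 members at the same time. The day 35 KO group had the highest mean of the 8 groups for these 5 and for Mog. The highest group mean was day 21 WT for Mag, and naive old for Cnp and Trf. The coefficient of variation within groups was 1.01 for Mobp, 0.591 for Mal, 0.448 for Mbp and 0.299 for Trf, against 0.152 for Cnp and 0.134 for Mag.

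Promoter sequence is available for 7 of the 9 members in RefSeq, build GRCm38.p6, as 300 bases that run from 250 before to 50 after the annotated start. Mbp and Trf were not matched. Because Sox10 and Myrf are known to switch on myelin genes in oligodendrocytes, the windows were searched on both strands for 3 short motifs: ACAAAG and ACAATG, core letters of SOX sites, and CTGGNAC, core letters of Myrf sites. The windows shown are those of the pair most alike across libraries (Mobp and Mal), of the members that varied least within groups (Mag, first of 3 annotated starts, and Cnp), and of the antigen used for EAE (Mog). Matches are in capitals, in either direction.
Mobp (chr9:120149492-120149791, plus strand): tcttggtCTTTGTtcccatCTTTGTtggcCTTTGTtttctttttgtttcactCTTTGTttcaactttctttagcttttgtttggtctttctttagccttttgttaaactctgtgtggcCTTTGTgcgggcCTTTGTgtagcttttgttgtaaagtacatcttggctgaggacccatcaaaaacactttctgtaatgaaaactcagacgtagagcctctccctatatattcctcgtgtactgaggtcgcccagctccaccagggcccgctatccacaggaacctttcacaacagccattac
Mal (chr2:127656646-127656945, minus strand): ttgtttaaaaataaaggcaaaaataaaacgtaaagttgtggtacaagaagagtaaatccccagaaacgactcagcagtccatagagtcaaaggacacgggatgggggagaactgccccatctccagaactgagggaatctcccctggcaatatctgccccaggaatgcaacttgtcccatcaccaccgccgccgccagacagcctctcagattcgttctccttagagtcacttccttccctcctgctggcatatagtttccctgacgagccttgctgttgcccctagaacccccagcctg
Mag (chr7:30914814-30915113, minus strand): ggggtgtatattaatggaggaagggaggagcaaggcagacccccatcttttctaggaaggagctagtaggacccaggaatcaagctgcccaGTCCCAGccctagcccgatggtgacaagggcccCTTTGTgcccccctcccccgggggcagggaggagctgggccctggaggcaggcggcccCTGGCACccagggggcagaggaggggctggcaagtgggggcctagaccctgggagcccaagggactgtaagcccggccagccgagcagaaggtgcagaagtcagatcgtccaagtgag
Cnp (chr11:100574689-100574988, plus strand): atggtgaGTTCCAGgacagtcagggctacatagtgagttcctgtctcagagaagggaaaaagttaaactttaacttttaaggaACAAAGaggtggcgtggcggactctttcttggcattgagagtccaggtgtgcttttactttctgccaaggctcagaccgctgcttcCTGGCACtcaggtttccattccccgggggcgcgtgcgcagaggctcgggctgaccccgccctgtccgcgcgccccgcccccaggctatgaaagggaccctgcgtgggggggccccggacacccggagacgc
Mog (chr17:37023349-37023648, minus strand): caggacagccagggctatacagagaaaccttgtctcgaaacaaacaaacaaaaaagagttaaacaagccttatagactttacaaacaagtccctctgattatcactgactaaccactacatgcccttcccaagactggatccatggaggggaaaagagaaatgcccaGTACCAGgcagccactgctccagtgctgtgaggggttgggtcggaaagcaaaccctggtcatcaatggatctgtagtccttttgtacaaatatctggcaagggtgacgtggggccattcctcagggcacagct

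The Mobp window held 6 ACAAAG matches, all of them read on the opposite strand as CTTTGT. It is the only 1 of 32851 promoter windows of this length with 6 or more. That cutoff was taken from the Mobp window itself, so the rarity is a description. The windows of Mag and Cnp each held 1 ACAAAG and 2 CTGGNAC matches, that of Mog 1 CTGGNAC match and that of Ermn 1 ACAATG match. The windows of Mal and Cldn11 held none of the 3. The background is high: 18.7% of all windows hold ACAAAG, 12.6% ACAATG and 19.3% CTGGNAC, and 42.3% hold at least 1 of them. A match here describes the letters and is not a bound site.

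Mobp also lies close to the locus that carries the Cre. In the same GRCm38 annotation (GENCODE M21), Cx3cr1 spans chr9:119901616-120069879 on the minus strand and Mobp spans chr9:120149707-120181484 on the plus strand, with 79827 bases between them. In naive mice, Cx3cr1 fell to 168.8 ± 82.2 CPM in KO microglia, against 2574 ± 1150 CPM in WT microglia (SD, n = 4 each), a log2 fold change of -3.93 (SE 0.49, adjusted p = 0.000312). Mobp did not pass the test in that comparison, at 4.36 ± 5.99 CPM in naive KO and 4.35 ± 2.60 CPM in naive WT microglia.

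The first comparison asks whether loss of Atg7 changes the myelin transcripts carried by microglia of mice without disease. None of the 8 tested members passed the test between naive KO and naive WT microglia, with log2 fold changes from -1.0 for Cldn11 to 1.06 for Ermn and a median of 0.02. Only 0.288% of the 13880 genes tested were called in this comparison by edgeR's quasi-likelihood test at an adjusted p under 0.05, and 1293 genes had an unadjusted p under 0.05. DESeq2 called no member either. Mbp, the myelin basic protein that holds the inner membrane faces together, had 40.1, 47.7, 41.8 and 77.4 CPM in naive KO libraries, against 38.5, 64.97, 64.3 and 51.0 CPM in naive WT libraries. The groups overlapped over most of their range. Cnp, an enzyme of the myelin cytoplasm, had 45.3, 52.4, 48.8 and 47.1 CPM in naive KO and 42.2, 45.7, 34.9 and 38.2 CPM in naive WT microglia. Its groups overlapped only between 45.3 and 45.7 CPM, and its log2 fold change of 0.27 (SE 0.15) did not pass the test (adjusted p = 0.609).

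At day 21, the first time sampled after EAE induction, most members were lower in KO than in WT microglia but none passed the test, although 19% of all genes were called. Of 8 log2 fold changes 2 were positive, and their median was -0.33 against 0.002 over all genes. Mbp had 42.9, 48.2, 48.4 and 39.7 CPM in day 21 KO libraries, against 70.3, 137.6 and 56.9 CPM in day 21 WT libraries. The groups did not overlap, and the log2 fold change was -0.98 (SE 0.39, unadjusted p = 0.0192, adjusted p = 0.0809, edgeR). Trf had 67.5, 84.6, 90.3 and 83.4 CPM in day 21 KO, against 94.95, 118 and 116.3 CPM in day 21 WT microglia. Its groups did not overlap either, with a log2 fold change of -0.43 (SE 0.28, adjusted p = 0.288). When the fit held only these 2 groups, Trf passed the test at a log2 fold change of -0.45 (adjusted p = 0.00121). Mobp, a basic protein of compact myelin, had 6.75, 9.28, 8.11 and 15.4 CPM in day 21 KO, against 20.3, 45.7 and 10.3 CPM in day 21 WT libraries, where the KO library with 15.4 CPM lay above the lowest WT library.

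Markers of other cells differed between the same libraries. The summed level of the 10 neuron markers was 8.95 to 10.1 CPM in day 21 KO and 27.3 to 73.8 CPM in day 21 WT libraries, and that of the 12 astrocyte markers was 228 to 250 CPM in day 21 KO and 313.7 to 361.8 CPM in day 21 WT libraries. The microglia marker sum was 9486 to 10100 CPM in day 21 KO and 17850 to 20320 CPM in day 21 WT libraries, and the monocyte marker sum was 2045 to 2809 CPM in day 21 KO and 175 to 470 CPM in day 21 WT libraries. All 10 neuron and all 12 astrocyte markers had counts. The part of these cells in the members' values was not tested.

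At day 35 the direction over the list was the other way, and again no member passed the test. All 8 log2 fold changes of KO over WT microglia were positive, with a median of 0.90 against -0.004 over all genes. edgeR called 2.62% of all genes (2685 genes at an unadjusted p under 0.05), and DESeq2 called no member. Mbp had 109, 96.6, 64.5 and 202 CPM in day 35 KO libraries, against 37.2, 34.8, 108 and 60.04 CPM in day 35 WT libraries. The groups overlapped through replicate 3 of day 35 WT alone, the library with the conflicting labels, and the log2 fold change was 0.98 (SE 0.36, adjusted p = 0.143). Without that library Mbp passed the test, at a log2 fold change of 1.42 (adjusted p = 0.0362), and it passed as well when the library was counted as KO, at 1.40 (adjusted p = 0.043). No other member passed without it, where the log2 fold change was 2.27 for Mobp (adjusted p = 0.16), 1.82 for Mal (adjusted p = 0.144) and 0.83 for Trf (adjusted p = 0.0775), and the median of the 8 members was 1.19. Ermn, a cytoskeletal protein of oligodendrocytes, had 2.38, 1.80, 0.422 and 5.09 CPM in day 35 KO, against 0, 0, 0.626 and 1.30 CPM in day 35 WT microglia. It overlapped between groups through its lowest KO library, with a log2 fold change of 2.30 (SE 0.86, adjusted p = 0.141).

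The remaining members also overlapped between KO and WT microglia at day 35. Mobp had 29.9, 22.9, 8.17 and 68.5 CPM in day 35 KO, against 1.57, 8.22, 27.1 and 10.4 CPM in day 35 WT libraries, and its log2 fold change was 1.46 (SE 0.80, adjusted p = 0.315). Mal, a raft-associated protein that sorts myelin membrane, had 4.90, 3.74, 2.25 and 5.83 CPM in day 35 KO, against 0.286, 1.07, 3.29 and 2.17 CPM in day 35 WT libraries. Replicate 3 of day 35 WT was again the highest of its group for both genes. It held the highest value of day 35 WT for 6 of the 9 members. Mal and Trf, like Mbp, overlapped between groups through that library alone. Trf had 155.7, 130.6, 297 and 155.8 CPM in day 35 KO, against 90.8, 91.9, 175.5 and 128.5 CPM in day 35 WT libraries. The EAE scores that the authors recorded were 2.5 to 3 in day 35 KO and 1 to 1.5 in day 35 WT samples, and the part of the score in these values was not tested. The neuron marker sum was 7.75 to 164.2 CPM in day 35 KO and 5.63 to 54.2 CPM in day 35 WT libraries, and the astrocyte marker sum was 333.9 to 543.9 CPM in day 35 KO and 218.8 to 363.8 CPM in day 35 WT libraries.

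**Figure D2:**
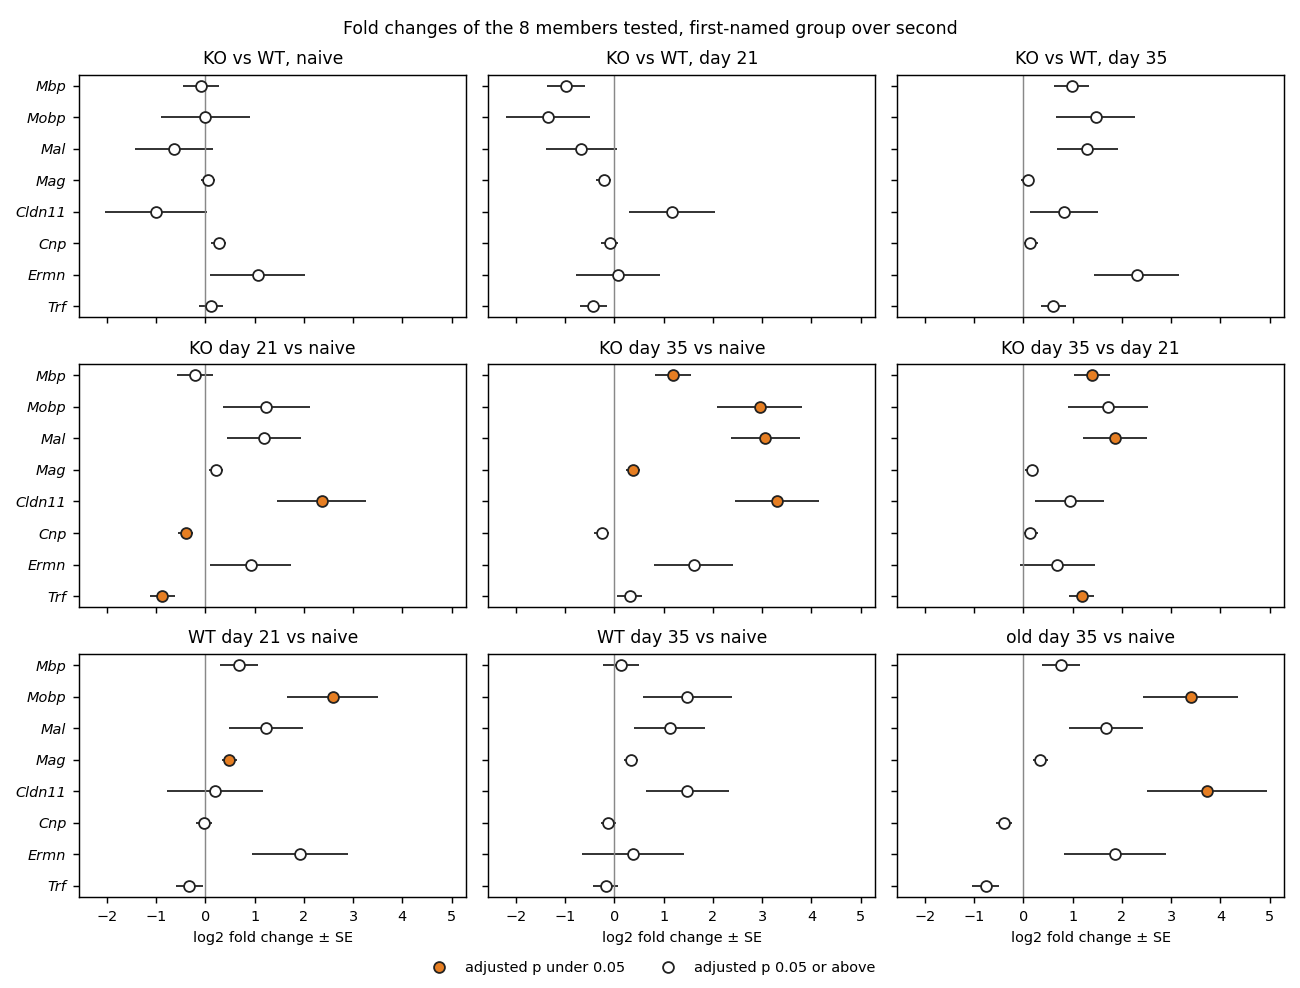
Log2 fold changes (points) with their standard errors (bars) for the 8 tested members in 9 comparisons, first-named group over second, from edgeR fitted to all 30 libraries. Filled points passed an adjusted p of 0.05: 0 members in each comparison of KO with WT, and 5 members in KO microglia at day 35 against naive.

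Within KO mice, most of the tested myelin transcripts rose at day 35 of EAE. Of the 8 tested members, 5 rose in day 35 KO over naive KO microglia and none fell, while 21.4% of all genes were called and 11.6% were called higher. Cldn11, among these 5, passed the filter on low counts only with the day 35 KO libraries where it is highest, so the count is a description. The median log2 fold change of the members was 1.40, against -0.002 over all genes. Among the proteins of compact myelin, Mal rose to 4.18 ± 1.55 CPM in day 35 KO, against 0.479 ± 0.359 CPM in naive KO microglia (SD, n = 4 each), a log2 fold change of 3.06 (SE 0.70, adjusted p = 0.00297). The day 35 libraries listed above all lay over the naive ones, which had 0.409, 0.773, 0 and 0.733 CPM. Mobp rose by a log2 fold change of 2.95 (SE 0.87, adjusted p = 0.019), to 32.4 ± 25.7 CPM in day 35 KO against 4.36 ± 5.99 CPM in naive KO microglia. The naive KO values were 1.36, 1.45, 1.29 and 13.3 CPM, so that replicate 4 of naive KO lay above the lowest day 35 library. Mbp rose to 118 ± 59.1 CPM in day 35 KO, against 51.8 ± 17.4 CPM in naive KO microglia, a log2 fold change of 1.19 (SE 0.36, adjusted p = 0.0213) with overlapping groups.

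Cldn11 and Mag, a junction and a surface protein, were among those that rose. Cldn11, a claudin that seals the myelin layers, had 2.08, 0.898, 0.986 and 2.98 CPM in day 35 KO, against 0.273, 0, 0 and 0.440 CPM in naive KO libraries. It rose by a log2 fold change of 3.30 (SE 0.85, adjusted p = 0.0071), on 51 counts in the day 35 KO group and 5 counts in the naive KO group. Because high day 35 KO libraries were needed for Cldn11 to be tested at all, its call is a description and no independent evidence of a rise. Mag, an adhesion protein of the myelin face next to the axon, had 23.0, 22.2, 23.2 and 25.1 CPM in day 35 KO, against 16.8, 20.2, 15.4 and 19.2 CPM in naive KO libraries. All 4 day 35 libraries lay above the naive ones, yet the change was small, a log2 fold change of 0.38 (SE 0.14, adjusted p = 0.0474). Ermn had a log2 fold change of 1.61 (SE 0.80, adjusted p = 0.147). Cnp, at 40.6 ± 3.07 CPM in day 35 KO and 48.4 ± 3.04 CPM in naive KO microglia, and Trf, at 185 ± 75.7 CPM in day 35 KO and 149 ± 27.2 CPM in naive KO microglia, did not pass the test either.

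The astrocyte marker sums of the same libraries did not overlap, with day 35 KO above naive KO, while the neuron marker sums overlapped. The astrocyte marker sum was 333.9 to 543.9 CPM in day 35 KO and 155 to 267 CPM in naive KO libraries, and the neuron marker sum was 7.75 to 164.2 CPM in day 35 KO and 9.26 to 30.4 CPM in naive KO libraries. Their part in the members' values was not tested. The calls differed in how far they depended on a single library. Mal kept its call whichever of the 8 libraries was left out. Cldn11 failed the filter on low counts without replicate 1 or 4 of day 35 KO, the libraries where it is highest, so its dependence on them was not tested. Mbp and Mobp lost theirs without replicate 4 of day 35 KO (adjusted p = 0.14 and 0.0973), and also without replicate 1, 2 or 3 of naive KO (adjusted p between 0.0581 and 0.0662). Without replicate 4 of naive KO, the library with 13.3 CPM, the log2 fold change of Mobp was 4.55 (adjusted p = 0.00288). Mag lost its call in 6 of 8 leave-outs (adjusted p up to 0.142). The number of members called was then between 1, without replicate 4 of day 35 KO, and 6, without replicate 4 of naive KO. It was 2 without replicate 1 or 3 of naive KO, 3 without replicate 2 of naive KO or replicate 1 of day 35 KO, and 2 when the fit held only these 2 groups.

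Mog, which encodes the EAE antigen and sits on the outermost myelin surface, was too low for the test across genes and also had its highest group mean in day 35 KO. It had 1.34, 0.898, 0.845 and 1.12 CPM in day 35 KO libraries, against 0, 0.290, 0 and 0.293 CPM in naive KO libraries. All 4 day 35 KO libraries lay above all naive KO libraries. The groups held 30 counts in day 35 KO and 5 counts in naive KO, a ratio of 6.78 with a 95% counting interval of 2.60 to 22.4. Day 21 KO held a single count, in replicate 2, so the ratio of day 35 KO to day 21 KO was 26.4 with a counting interval of 4.39 to 1080.0. Both comparisons gave p = 0.0286 in an exact two-sided permutation test, the smallest value that 4 against 4 libraries allow, and an adjusted p of 0.172 over the 12 comparisons made for Mog. In day 35 WT, Mog had 0, 0, 1.25 and 0.144 CPM, and 8 of that group's 9 counts came from replicate 3. The ratio of day 35 KO to day 35 WT was 3.14 (counting interval 1.45 to 7.51, exact permutation p = 0.114, adjusted p = 0.342). Without replicate 3, day 35 WT held 1 count over 3 libraries, and the ratio was 21.5 (counting interval 3.58 to 878, exact two-sided permutation p = 0.0571, the smallest that 4 against 3 libraries allow). The intervals cover counting error only.

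Trf and Cnp, the members with the highest levels per kilobase, fell in day 21 KO compared with naive KO microglia. Trf fell to 81.5 ± 9.77 CPM in day 21 KO, against 149 ± 27.2 CPM in naive KO microglia (SD, n = 4 each), a log2 fold change of -0.87 (SE 0.26, adjusted p = 0.00781). The naive KO values of 127.2, 181.5, 161.5 and 125.8 CPM all lay above the day 21 KO values given above, and no leave-out ended the call. Cnp fell to 36.8 ± 2.33 CPM in day 21 KO, against 48.4 ± 3.04 CPM in naive KO microglia, a log2 fold change of -0.40 (SE 0.15, adjusted p = 0.0376), again with no overlap. Cldn11 rose by a log2 fold change of 2.36 (SE 0.90, adjusted p = 0.0335), with 23 counts in day 21 KO and 5 counts in naive KO. The share is near that of all genes: 3 of 8 members were called, 1 higher and 2 lower, where 45.2% of all genes were called, 22.5% higher and 22.7% lower. Cnp and Cldn11 lost their calls without replicate 2 or 3 of naive KO and without replicate 1 or 4 of day 21 KO, which left 1 member called, and Cnp also without replicate 3 of day 21 KO (adjusted p up to 0.0957 for Cnp and 0.109 for Cldn11). Without replicate 4 of naive KO, Mobp passed as well, at a log2 fold change of 2.84 (adjusted p = 0.024), against 1.24 (adjusted p = 0.265) with it. Other markers differed in the same comparison. The microglia marker sum was 9486 to 10100 CPM in day 21 KO and 24280 to 25860 CPM in naive KO libraries, with 9 of 10 markers lower. The monocyte marker sum was 2045 to 2809 CPM in day 21 KO and 29.9 to 435 CPM in naive KO libraries, with 1 of 8 markers called higher, and all 7 neutrophil markers were lower. The sum of the 5 ependymal and choroid plexus markers was 12.6 to 35.9 CPM in day 21 KO and 54.1 to 504.5 CPM in naive KO libraries. Of 3 tested, 2 were lower, Kl and Ttr. The part of all these cells in the members' values was not tested.

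Trf, Mbp and Mal rose in day 35 KO over day 21 KO microglia. All 8 log2 fold changes of day 35 KO over day 21 KO were positive, with a median of 1.06, and 3 members passed the test, where 24.9% of all genes were called and 13.3% were called higher. Trf rose to 185 ± 75.7 CPM in day 35 KO, against 81.5 ± 9.77 CPM in day 21 KO microglia, a log2 fold change of 1.18 (SE 0.26, adjusted p = 0.0018). Its day 35 KO values of 155.7, 130.6, 297 and 155.8 CPM did not overlap those of day 21. Mbp rose by a log2 fold change of 1.40 (SE 0.37, adjusted p = 0.00755) and Mal by 1.86 (SE 0.65, adjusted p = 0.036), both with no overlap. The calls of Trf and Mbp held in every leave-out, while that of Mal was lost in 6 of 8 (adjusted p up to 0.0918), which left 2 members called. In the same comparison 7 of 8 tested neuron markers, 5 of 11 astrocyte, 7 of 7 neutrophil, 5 of 5 erythroid, 3 of 3 B and plasma cell and 8 of 10 microglia markers rose, and all 3 tested T and NK cell markers fell. The neuron marker sum was 7.75 to 164.2 CPM in day 35 KO and 8.95 to 10.1 CPM in day 21 KO libraries, and the microglia marker sum was 12450 to 18810 CPM in day 35 KO and 9486 to 10100 CPM in day 21 KO libraries. Their part in the members' values was not tested.

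The change from day 21 to day 35 differed between genotypes for Mbp. In WT microglia its level was 60.1 ± 34.1 CPM at day 35 (n = 4) and 88.3 ± 43.3 CPM at day 21 (n = 3), with a log2 fold change of -0.55 (SE 0.38, adjusted p = 0.882). The KO change minus the WT change was 1.95 on the log2 scale (SE 0.53, adjusted p = 0.0483). No other member passed this test, and 2.67% of all genes did, 1.86% in the positive direction. The call lay close to the threshold. It was lost in 13 of 15 leave-outs, where the difference ranged from 1.48 without replicate 2 of day 21 WT (adjusted p = 0.195) to 2.19, and it held without replicate 3 of day 35 KO (2.16, adjusted p = 0.0278) and without replicate 3 of day 35 WT (2.40, adjusted p = 0.00931). It was also lost without a filter on low counts (adjusted p = 0.0901), with only the compared groups in the fit (adjusted p = 0.0841) and with the i5 index set as a block (adjusted p = 0.0531), while DESeq2 kept it (adjusted p = 0.0109). The differences of KO and WT changes from naive to day 21 (9.68% of genes called) and from naive to day 35 (0.367% called) passed for no member in edgeR or DESeq2, and 3610 and 2473 genes had an unadjusted p under 0.05 in these tests.

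In WT mice, Mobp and Mag rose at day 21 of EAE. They were 2 of 8 tested members, and none fell, where 21.5% of all genes were called and 9.51% were called higher. The share called in either direction is near that of all genes, so the count is a description. Mobp rose to 25.4 ± 18.3 CPM in day 21 WT (n = 3), against 4.35 ± 2.60 CPM in naive WT microglia (n = 4), a log2 fold change of 2.58 (SE 0.92, adjusted p = 0.0488). The naive WT values were 1.18, 7.27, 5.38 and 3.56 CPM, all below the lowest day 21 WT value of 10.3 CPM. Mag rose to 24.2 ± 2.45 CPM in day 21 WT, against 17.4 ± 2.91 CPM in naive WT microglia, a log2 fold change of 0.48 (SE 0.15, adjusted p = 0.021), and its groups did not overlap. Mobp lost its call in 6 of 7 leave-outs (adjusted p up to 0.249, without replicate 2 of day 21 WT). Mag lost its call without replicate 3 of naive WT or replicate 2 or 3 of day 21 WT (adjusted p up to 0.103). Each leave-out thus left 0 or 1 member called. The astrocyte marker sum was 313.7 to 361.8 CPM in day 21 WT and 177.1 to 215.8 CPM in naive WT libraries, and 3 of 11 tested astrocyte markers rose. All 7 neutrophil markers were lower in day 21 WT than in naive WT microglia. The part of these cells in the members' values was not tested.

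At day 35 no member passed the test over naive WT, with 19.1% of genes called (4626 genes at an unadjusted p under 0.05), and 6 of 8 log2 fold changes were positive. Between day 35 WT and day 21 WT no member passed the test, where 0.0648% of genes were called and 935 had an unadjusted p under 0.05. DESeq2 called no member in either comparison. Mbp was at 60.1 ± 34.1 CPM in day 35 WT and 54.7 ± 12.6 CPM in naive WT microglia (log2 fold change 0.14, SE 0.36). Without replicate 3 of day 35 WT that value turned to -0.31 (adjusted p = 0.564), 5 of 8 log2 fold changes over naive WT were positive, and Mobp was at 0.68, against 1.48 with the library. Mbp in day 35 WT over day 21 WT was then at -1.0 (adjusted p = 0.409). No member passed either comparison without it. All 7 neutrophil markers were lower in day 35 WT than in naive WT microglia, and their part in the members' values was not tested.

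Old mice were compared with young WT mice at matched times, and since the Cre and tamoxifen status of the old mice is not given, age and these factors cannot be told apart. In naive microglia no member passed (8.18% of genes called, 3224 at an unadjusted p under 0.05). Trf had 210.6, 289.8, 183.3 and 144.7 CPM in naive old, against 122.8, 155.7, 140.3 and 132.3 CPM in naive WT libraries. It was above all naive WT libraries in 3 of 4 old libraries, with a log2 fold change of 0.59 (SE 0.25, adjusted p = 0.156). At day 35 no member passed between old and WT (9.45% called, 3245 at an unadjusted p under 0.05), and DESeq2 called none at either time. EAE scores differed as well, at 2.75 to 3 in day 35 old and 1 to 1.5 in day 35 WT samples. The part of the score in the day 35 values was not tested. Mbp had 66.6, 131 and 117 CPM in day 35 old, against the day 35 WT values given above, and a log2 fold change of 0.81 (SE 0.38, adjusted p = 0.204). It passed without replicate 3 of day 35 WT, at 1.25 (adjusted p = 0.0421), and no other member did, with Mobp at 2.06 (adjusted p = 0.171) against 1.25 (adjusted p = 0.414) with it.

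Within old mice, 2 of 8 members rose at day 35 over naive, where 18.4% of all genes were called and 10.4% were called higher. The share called in either direction is not far from that of all genes. Mobp had 4.67, 43.9 and 35.03 CPM in day 35 old, against 3.87, 2.92, 2.92 and 0.699 CPM in naive old libraries. The groups did not overlap, but the lowest day 35 library, replicate 1 with its neutrophil markers, was close to the naive range. The log2 fold change was 3.40 (SE 0.96, adjusted p = 0.0183), and 3.89 without replicate 1 (adjusted p = 0.00833). Cldn11 passed the test (adjusted p = 0.0335) on 16 counts in 3 day 35 old libraries and 1 count in 4 naive old libraries, a ratio of 18.7 with a 95% counting interval of 2.91 to 786. Mobp lost its call without replicate 3 of day 35 old (adjusted p = 0.0646). Cldn11 lost it without that library (adjusted p = 0.192) and without replicate 1, 2 or 3 of naive old (adjusted p up to 0.091). The number of members called was 0 without replicate 3 of day 35 old, 1 without replicate 1, 2 or 3 of naive old, and 4 without replicate 2 of day 35 old. No member passed when the fit held only the 2 old groups. Of 11 tested astrocyte markers 10 rose in day 35 old over naive old microglia, and their part in these values was not tested.

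**Figure D3:**
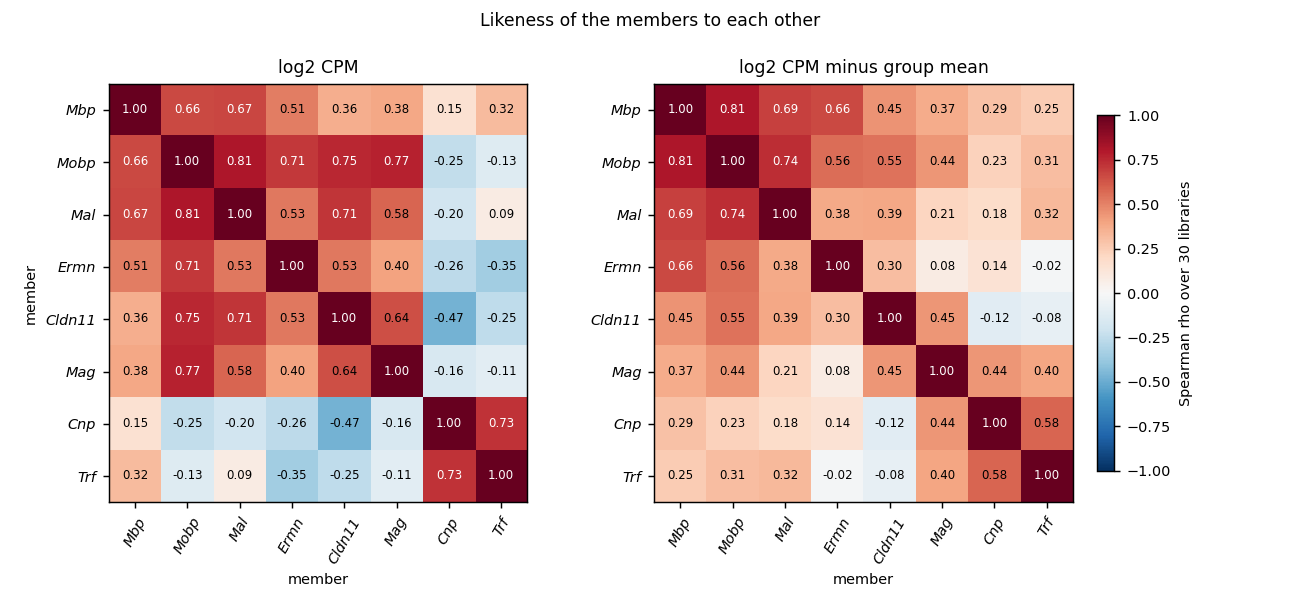
Spearman rho between the 8 tested members over 30 libraries, on log2 CPM (left) and after the mean of each group was subtracted (right). Colour and the number in each cell give rho. Mobp and Mal reach 0.81 on log2 CPM, while Cldn11 and Cnp are at -0.47.

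The members differed in which others they resembled across libraries, a description over 30 libraries that share 8 groups, with no test. Among Mbp, Mobp, Mal, Cldn11 and Ermn, the 10 pairs had Spearman rho of 0.36 to 0.81 on log2 CPM with a median of 0.67. The 10 pairs of these genes with Cnp or Trf had rho of -0.47 to 0.32, with a median of -0.22. Cnp and Trf were alike to each other, at 0.73. On this scale Mag was at 0.77 with Mobp and at -0.16 with Cnp. After the group means were subtracted, the first set of pairs had rho of 0.31 to 0.81, with a median of 0.55, so that libraries of the same group differed in these transcripts together. The pairs with Cnp or Trf then had rho of -0.12 to 0.32 with a median of 0.21, so their negative median was seen only with the group means included. Mag was then at 0.44 with both Mobp and Cnp. In naive KO, for example, replicate 4 was highest for 5 of the 9 members, in day 21 WT replicate 2 for 6 and in day 35 KO replicate 4 for 6.

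Genes whose levels were most like the members' were sought among all genes that passed the filter. Those with a high mean rho over the 8 members included Kif5a at 0.53, followed by Aplp1, Ntm, Gria1, Psd, Rims1, Pcsk1n, Nnat and Cpe, many of them known from neurons. After group means were subtracted, the leading genes were Kif5c and Sparcl1, both at 0.57, and further ones were Ank3, Camk2n1, Rph3a, Ndrg2, Kif5a, Itih3 and Slc1a2, the astrocyte glutamate transporter. The genes most like a given member, named after their values were seen, differed between members. For Mobp, on log2 CPM with the group means included, they were Aldoc (0.94), Kif5c and Scg3 (0.93 each). Kif5c was at 0.86 with Mobp after the group means were subtracted. For Trf they were Vkorc1 (0.90), the microglial signalling adaptor Tyrobp (0.89), Cadm1 and the lysosomal Cd68 (both 0.86). For Cnp they were Mfsd5 (0.87) and Derl1 (0.86).

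The other genes listed for myelin and mature oligodendrocytes gave a mixed picture, and which cells their RNA came from was not tested. Of 25 other myelin and mature oligodendrocyte genes 14 could be tested. In day 35 KO against naive KO microglia, 5 of these 14 rose, among them Apod (log2 fold change 2.33, adjusted p = 0.00255), a lipid carrier, and Tubb4a (1.96, adjusted p = 0.00795), a tubulin of myelinating cells, and 2 fell, Evi2a (-0.43, adjusted p = 0.0368) and Enpp2 (-2.21, adjusted p = 0.0297). The median log2 fold change of the 14 was 1.56. Of all genes, 11.6% were called higher and 9.81% lower in this comparison. The summed level of the 25 genes overlapped between groups, at 497.6 to 536.3 CPM in day 35 KO and 366.8 to 584.2 CPM in naive KO libraries. Against day 21 KO, 8 rose in day 35 KO and 1 fell, with the tetraspanin Cd9 (1.22, adjusted p = 6.96e-05) and the carbonic anhydrase Car2 (2.82, adjusted p = 0.00216) among those that rose. There, 13.3% of all genes were called higher and 11.7% lower. At day 21, 3 were lower in KO than in WT microglia (Evi2a, Cd9 and Car2) and 1 was higher (Anln, log2 fold change 1.91, adjusted p = 0.0421). Of all genes, 9.86% were called lower and 9.18% higher there. No gene of the list was called between KO and WT microglia at day 35, with a median log2 fold change of 1.10. Opalin, restricted to mature oligodendrocytes, had 11 counts over the day 35 KO libraries, 5 over those of day 35 old, and 0 over day 35 WT.

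Oligodendrocyte transcription factors and progenitor genes were scarce. Of 8 transcription factors 3 could be tested, and the list summed to 2.68 to 9.06 CPM in day 35 KO and 1.42 to 2.35 CPM in naive KO libraries. Here 2 rose in day 35 KO over naive KO microglia, St18 (log2 fold change 3.44, adjusted p = 0.00365) and Myrf (1.96, adjusted p = 0.0188), a regulator of myelin genes. Of 12 progenitor genes 5 could be tested, and 3 rose in day 35 KO over naive KO microglia: Cspg4, Ptprz1 and Tnr. Cspg4, which pericytes and some macrophages also express, reached 26.0 ± 4.01 CPM in day 35 KO, against 3.61 ± 3.65 CPM in naive KO microglia. In naive old microglia it was at 42.3 ± 22.5 CPM. Of 6 genes of myelin lipid synthesis 4 could be tested, and none rose in day 35 KO over naive KO while Cers2, a ceramide synthase, fell. In the same comparison all 11 tested astrocyte markers and 7 of 8 tested neuron markers rose, with median log2 fold changes of 2.38 and 2.89. The part of astrocyte and neuron RNA in the members' rise was not tested.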

How the data were processed

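RNA of sorted microglia was measured in 30 libraries of 8 groups. Raw gene counts, listed by Ensembl identifier, were deposited by the authors, and the submitters' processing notes name CASAVA, bcl2fastq, STAR and the build GRCm38. Which program counted reads, with which strand setting and on which annotation, is not given in the sources used here. EAE scores and RNA integrity numbers (8.5 to 10) are scores from a second table deposited by the authors. Per the labels' protocols, the library kit was a SMARTer Stranded Total RNA-Seq Pico kit. Count columns were joined to samples through the plate wells of the authors' sample table, an inference by which all 30 columns fell in the group of the sample's title. The other 2 count columns were not used. Replicate numbers are accession order.

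Symbols and exonic lengths came from GENCODE M21. filterByExpr with a minimum count of 10 and a minimum total of 15 kept 13880 genes, and TMM factors scaled the libraries. In R 4.3.3, edgeR 4.0.16 fitted 1 mean for each group over the 30 libraries (robust glmQLFit, 22 residual degrees of freedom), and its quasi-likelihood test was run on 15 contrasts. Benjamini-Hochberg adjustment ran over all genes of a contrast, with calls at an adjusted p under 0.05. The fit was tested on simulated counts. DESeq2 1.42.0 was an alternative, besides other scaling, no filter, fits of the compared groups alone and leaving out libraries. Levels are CPM with TMM factors, and likeness was computed on log2 CPM (prior count 2). Mog was tested per comparison with an exact permutation test. No 2 replicates differed by as little as sampling noise: the lowest chi-square per degree of freedom was 3.98. The members and lists were chosen with earlier results of these data known. All 9 members are named, and of each list those called with the lowest adjusted p; a few genes that this and the likeness ranking would name are not reported here.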

Additional observations from a re-analysis of the deposited data

Results flagged for a closer look

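For each of the 9 members and 2 sums over them (all members, and all without Cnp and Trf), in each group of 4 libraries, the gap between an extreme library and its neighbour was compared with the whole range of the group. Of 66 such tests 6 had a gap above Dixon's 95% critical value. Chance flags about 1 in 20 groups. Mobp in naive KO had 13.3 CPM in replicate 4 against 1.29 to 1.45 CPM in the others (0.986 of the range), and Ermn in the same library had 2.05 CPM against 0.290 to 0.515 CPM (0.873). That library also had the highest neuron and astrocyte marker sums of naive KO, 30.4 and 267 CPM. Its border macrophage marker sum was 24.9 CPM against 206.8 to 278 CPM in the other naive KO libraries. Its monocyte marker sum was 29.9 CPM against 316.6 to 435 CPM in those. The chi-square per degree of freedom was 28.6 to 33.6 between it and the other naive KO libraries, and 5.01 to 11.8 among the others. Trf in day 35 KO had 297 CPM in replicate 3 against 130.6 to 155.8 CPM (0.849), the library with the lowest Mbp, Mobp, Mal and Ermn of its group. Mog in day 35 WT had 1.25 CPM in replicate 3 against 0 to 0.144 CPM (0.885). This is the library whose genotype labels conflict. Mog in day 21 KO (replicate 2, 0.186 CPM) and Cldn11 in naive old (replicate 4, 0.175 CPM) were each the only library with a count, and their gap was the whole range (1.0).

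The change of Mbp from day 21 to day 35 differed between KO and WT microglia by 1.95 on the log2 scale, with an adjusted p of 0.0483 in edgeR's interaction contrast. That call was lost in 13 of 15 leave-outs, without the filter on low counts (adjusted p = 0.0901), with the compared groups alone (adjusted p = 0.0841) and with the i5 index set as a block (adjusted p = 0.0531).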

How the results depend on the processing

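The number of members called moved by over 1.5 times under these settings. Without a filter on low counts it was 0 for WT day 21 against naive and 0 for the genotype difference from day 21 to day 35, which was 1 with the filter. With only the compared groups in the fit it was 1 for KO against WT at day 21 (Trf), 2 for KO day 35 against naive, 0 for old day 35 against naive, 1 for the genotype difference from naive to day 21 (Trf, -0.54, adjusted p = 0.0437) and 0 for that from day 21 to day 35. With replicate 3 of day 35 WT counted as KO it was 1 for KO against WT at day 35 (Mbp), 1 for old against WT at day 35 (Mbp, 1.25, adjusted p = 0.0398) and 2 for the genotype difference from day 21 to day 35. Without that library and replicate 1 of day 35 old, a setting chosen after seeing the data, it was 1 for KO against WT at day 35 (Mbp, 1.42, adjusted p = 0.0224) and 3 for the genotype difference from day 21 to day 35. With the i5 index set as a replicate block it was 1 for WT day 21 against naive and 0 for the genotype difference from day 21 to day 35 (Mbp, 1.88, adjusted p = 0.0531). Replicate numbers are accession order and pair nothing, and libraries of the same index set did not deviate together (median correlation -0.00635 over 98 pairs).

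Leaving out each library in turn gave 0 to 1 members for KO against WT at day 35 and for old against WT at day 35, 0 to 1 for WT day 21 against naive, 1 to 4 for KO day 21 against naive, 1 to 6 for KO day 35 against naive, 2 to 3 for KO day 35 against day 21, 0 to 4 for old day 35 against naive and 0 to 1 for the genotype difference from day 21 to day 35. It gave 0 in the other 7 comparisons. Among the member values followed through the leave-outs, signs turned for 2 uncalled ones. Mbp in day 35 WT over naive WT was -0.31 without replicate 3 of day 35 WT, -0.31 with it counted as KO and -0.31 without it and replicate 1 of day 35 old, against 0.14 with all libraries and at most 0.33 in the other leave-outs. Cnp in KO against WT at day 35 was -0.004 without replicate 1 of day 35 WT, against 0.14 with it, and at most 0.31 in the other leave-outs. Further uncalled values near 0 turned without replicate 3 of day 35 WT. Trf in day 35 WT over day 21 WT went from 0.146 to -0.083, and Mag in old over WT at day 35 from -0.033 to 0.019. Cnp in the genotype difference from naive to day 35 went from -0.131 to 0.036. DESeq2 and RLE scaling moved no member count by over 1.5 times, and group levels of the members on plain library totals moved by less than 1 SD.

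Over all genes, DESeq2 called 73 genes for KO against WT in naive mice (edgeR 40), 699 at day 35 (363), 75 for WT day 35 against day 21 (9), and 478 and 734 for the genotype differences from naive and from day 21 to day 35 (51 and 370). Without the filter the counts were 143 for KO against WT at day 35, 14 for WT day 35 against day 21, 849 for old against WT at day 35 (1312) and 845 for the genotype difference from naive to day 21 (1343). With the compared groups alone they were 18 for KO against WT in naive mice, 4408 at day 21 (2642), 559 at day 35, 93 for WT day 35 against day 21, 675 for old against WT in naive mice (1135), 0 at day 35 and 180 for old day 35 against naive (2555), and 2516, 119 and 1104 for the genotype differences from naive to day 21, naive to day 35 and day 21 to day 35. With replicate 3 of day 35 WT counted as KO they were 170 for KO against WT at day 35, 4 for WT day 35 against day 21, and 13 and 769 for the genotype differences to day 35 from naive and from day 21. Without that library and replicate 1 of day 35 old these were 839, 23, 624 and 1269, and 0 for old against WT at day 35. With the index block they were 22 for WT day 35 against day 21 and 647 for old against WT at day 35. The cause of these shifts was not tested. Depth limits Mog, Cldn11, Ermn and Mal most, which had fewer than 50 counts in every library.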
